A study of Sus scrofa with 4 samples.

Results

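NRF2, encoded by NFE2L2, is a transcription factor that raises the expression of antioxidant and detoxication genes when cells meet oxidants or electrophiles. The adaptor KEAP1 binds NRF2 and hands it to a ubiquitin ligase for breakdown, and oxidation of KEAP1 lets NRF2 accumulate, enter the nucleus and bind antioxidant response elements together with small MAF proteins. Its targets supply glutathione and thioredoxin, the main thiol reductants of the cell, break down haem and reduce quinones. In healing skin this programme is known as a guard against the oxidants that inflammatory cells release. The gene set followed here was NFE2L2, KEAP1, NQO1, HMOX1, GCLC, GCLM, TXN, TXNRD1, SRXN1 and SQSTM1. A gene was followed through probesets to which the platform annotation gives its symbol alone, and the brightest of these by mean log2 signal stood for the gene. This rule found 7 of the 10 genes, out of 6765 named genes on the array. NFE2L2, KEAP1 and SRXN1, which encodes the sulfiredoxin that repairs peroxiredoxins, had no probeset under their name and were not analysed here.

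The values came from dermal fibroblasts of Duroc pigs, grown from biopsies of deep and of shallow back wounds 20 weeks after wounding, in the same serum-containing medium and harvested at confluence. There were 2 arrays from deep wounds and 2 from shallow wounds, 1 of each for each of 2 pigs. No treatment or genetic change separates the groups, and each array is 1 culture, so the spread is between 2 animals. Partners are numbered in the sample titles, and the assignment of arrays to pigs rests on reading those numbers in the listed order. Signals are MAS5 intensity units on a linear scale, in which each array had been scaled to the same trimmed mean. Differences are deep minus shallow on the log2 scale from limma with the pig as block, with the standard error (SE) and a p-value adjusted over all 14399 probesets tested. The comparison asks what wound depth changes in fibroblasts of the same animal, in a series entitled a porcine model of cutaneous fibrosis.

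The arrays differed in ways that touch these genes. The actin 3' to 5' signal ratio, which follows RNA quality and labelling, was 3.28 and 6.10 on the deep arrays of pig 1 and pig 2, against 1.96 and 2.41 on the shallow arrays. Hybridization controls, as the geometric mean of 27 probesets, read 1579 and 3880 on the deep arrays, against 1145 and 1326 on the shallow arrays. Controls for 28S rRNA averaged 3462 and 7621 on the deep arrays, against 1351 and 1836 on the shallow arrays. The part of these array differences in the gene differences was not tested. Very bright probesets read higher on the deep arrays. Of the 144 probesets in the brightest 1% of those tested, 144 had a positive difference, with a median of 0.73, or 0.40 in pig 1 and 1.03 in pig 2. In the brightest 5% the median was 0.33, and over all probesets tested it was -0.02. Among 13 fibroblast markers on the array 0 were below the highest absent control on any array, and their summed signal was 62344 and 96949 in deep cultures, against 39061 and 45519 in shallow cultures. The 10 epithelial markers summed to 362 and 204 in deep cultures, against 8936 in the shallow culture of pig 1 and 240 in that of pig 2. CDH1 and EPCAM, which define epithelium, read 1084 and 979 on that shallow array, and nowhere else above 27.3. The 16 cell-cycle genes summed to 2164 and 2595 in deep cultures, against 16788 and 5071 in shallow cultures. All 16 had both deep arrays below both shallow arrays, beside 25.5% of all probesets tested, and their median difference was -2.09. Endothelial, leukocyte, pericyte, melanocyte and adipocyte markers summed to between 53.9 and 769 on any array. In such bulk cultures fewer cells of a type and less RNA per cell cannot be told apart.

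Of the 7 measured genes, SQSTM1 read 2.38-fold and HMOX1 2.22-fold higher in fibroblasts of deep wounds, and GCLC read 1.29-fold lower. NQO1, TXNRD1 and GCLM read 1.25-fold to 1.49-fold higher, and TXN read 1.61-fold higher, but not under quantile normalization (log2 difference -0.071). None of the 7 passed an adjusted p of 0.05 in limma, where 0.34% of all probesets tested did. At an unadjusted p under 0.05, 2 were higher and 0 lower, beside 6.94% and 6.92% of all probesets tested. The median difference of the 7 was 0.58, beside -0.02 over all probesets tested and 0.99 over the 13 fibroblast markers. Under quantile normalization the median of the 7 was 0.40, and with the actin ratio as covariate in place of the pig it was 0.19. In the fit with that covariate SQSTM1 was at 0.62 ± 0.66, NQO1 at 0.15 ± 0.44, TXNRD1 at 0.19 ± 0.45 and HMOX1 at 1.81 ± 0.65 (SE). The actin ratio was higher on both deep arrays, so that fit shares its covariate with depth. By pig, in the signals as deposited, the median was 0.27 in pig 1 and 0.83 in pig 2. The deep arrays lay above the shallow arrays with no overlap for 5 of the 7 genes in the signals as deposited, beside 23.2% of all probesets tested. Both lay below for 1 gene, GCLC, beside 25.5%. Without the shallow array of pig 1, which carried epithelial signal, the deep arrays were on top for 6 genes, beside 32.0% of probesets, and without the deep array of pig 2 for 5, beside 34.3%. Of the 5 genes above, 4 are in the brightest 5% of probesets, where 54.4% had both deep arrays on top. At least a 1.5-fold higher signal in both pigs was seen for 2 genes, SQSTM1 and HMOX1, beside 6.29% of all probesets tested, and a 1.5-fold lower one for 0, beside 5.53%. The part of brightness in these counts was not tested.

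**Figure D1:**
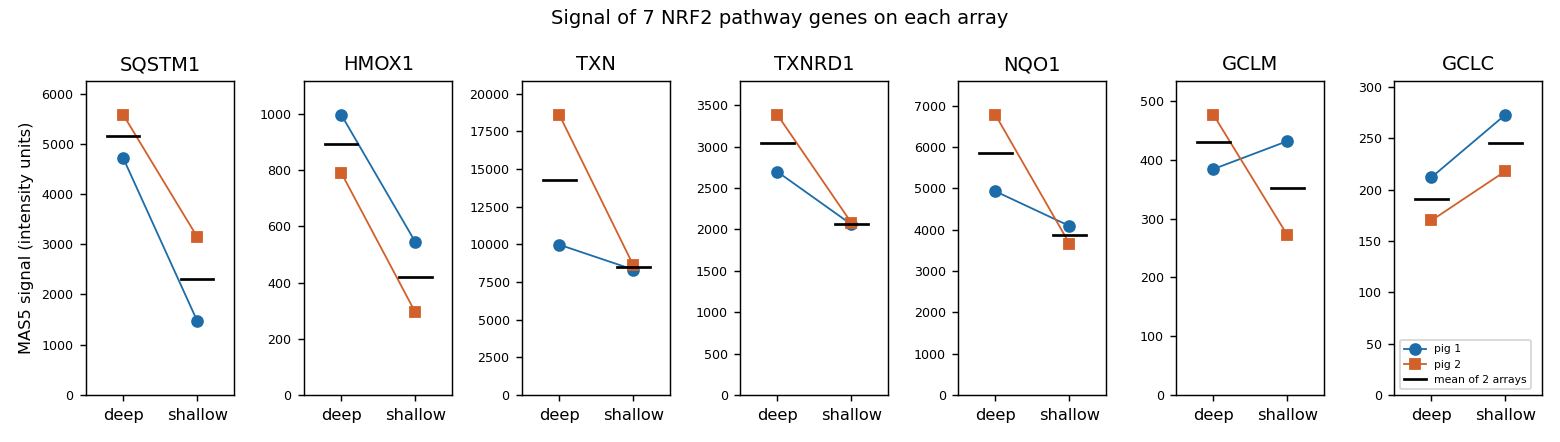
MAS5 signal in intensity units of the 7 measured genes, each panel on its own axis from 0, with the deep culture left and the shallow culture right. Lines join the arrays of 1 pig and black bars are means of 2 arrays. SQSTM1 and HMOX1 are higher in deep cultures of both pigs, TXN stands out on the deep array of pig 2 alone, and GCLM moves in opposite directions in the pigs.

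Of the regulators, SQSTM1 could be followed. It encodes p62, a cargo receptor of selective autophagy that also binds KEAP1 and so releases NRF2, and it is itself an NRF2 target. Its only named probeset read 4718 in pig 1 and 5580 in pig 2 in deep cultures, against 1473 in pig 1 and 3147 in pig 2 in shallow cultures. The groups did not overlap, and the lowest value by far was the shallow culture of pig 1. The deep mean was 5149 ± 610 and the shallow mean 2310 ± 1184 (SD, n = 2 arrays each). The log2 difference was 1.25 ± 0.31 (SE; limma, adjusted p = 0.140), with a 95% interval from 0.53 to 1.97. It was larger than 97.3% of the differences of all probesets tested. In pig 1 the difference was 1.68 and in pig 2 it was 0.83, while the shallow cultures of the 2 pigs differed by 1.10, so the spread between animals was wider than the difference within pig 2. Without the shallow array of pig 1, where epithelial and cell-cycle genes read highest, the difference was 0.71, and without that of pig 2 it was 1.80. Each of these fits has no block and leaves 1 shallow culture, so the size alone is given. The part of epithelial or dividing cells in the SQSTM1 difference was not tested.

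HMOX1 encodes haem oxygenase 1, which splits haem into biliverdin, carbon monoxide and iron. Its gene is also held down by the repressor BACH1 until haem is plentiful. Its only named probeset read 998 and 792 in the deep cultures of pig 1 and pig 2, against 545 and 295 in their shallow cultures. Pig 1 read higher than pig 2 at both depths, and the deep culture was the higher within each pig. The deep mean was 895 ± 146 and the shallow mean 420 ± 177 (SD, n = 2 arrays each). The log2 difference was 1.15 ± 0.28 (limma, adjusted p = 0.140), with a 95% interval from 0.49 to 1.81, and it was 0.87 in pig 1 and 1.43 in pig 2. HMOX1 is not among the brightest 20% of probesets, and it was lower on the deep array of pig 2 than on that of pig 1. The part of brightness in the HMOX1 difference was not tested. Quantile normalization gave 1.20 (limma, adjusted p = 0.123). Without the shallow array of pig 1 the difference was 1.59, and without that of pig 2 it was 0.70, each with 1 shallow culture left.

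NQO1 encodes a quinone reductase that spends NADPH to turn quinones into hydroquinones, and it is the target most often used to read NRF2 activity. Its only named probeset read 4932 and 6788 in the deep cultures of pig 1 and pig 2, against 4092 and 3667 in their shallow cultures. The deep arrays lay above the shallow arrays, and the deep array of pig 2 stood highest. The deep mean was 5860 ± 1312 and the shallow mean 3880 ± 301 (SD, n = 2 arrays each). The log2 difference of 0.58 ± 0.30 did not pass (limma, adjusted p = 0.443), and its 95% interval ran from -0.11 to 1.27. It was 0.27 in pig 1 and 0.89 in pig 2, and 0.30 under quantile normalization. The deep cultures differed between the pigs by 0.46.

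GCLC and GCLM encode the catalytic and the modifier subunit of glutamate-cysteine ligase, the rate-limiting enzyme of glutathione synthesis. The brightest GCLC probeset read 212 and 170 in the deep cultures of pig 1 and pig 2, against 273 and 218 in their shallow cultures. It was the only measured gene of the set that read lower in both deep cultures, by -0.37 in pig 1 and -0.36 in pig 2. The log2 difference was -0.36 ± 0.30 (limma, adjusted p = 0.650), with a 95% interval from -1.05 to 0.33. The groups did not overlap, and pig 2 read below pig 1 at each depth, by -0.32 in deep and -0.32 in shallow cultures, slightly less than the difference between depths.

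GCLC had 5 named probesets, and they did not show a common direction. The second-brightest differed by 0.0032 ± 0.39 and the next by 0.21 ± 0.46. The remaining 2 probesets did not pass the filter on dim probesets and were below the highest absent control on 2 or 3 of the 4 arrays. For GCLM, the brighter probeset read 384 and 477 in the deep cultures of pig 1 and pig 2, against 432 and 272 in their shallow cultures. The groups overlapped, with a difference of -0.17 in pig 1 and 0.81 in pig 2. The log2 difference was 0.32 ± 0.33 (limma, adjusted p = 0.726), with a 95% interval from -0.43 to 1.08, and its dimmer probeset did not pass the filter.

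TXN encodes thioredoxin, which reduces disulfides in proteins, and TXNRD1 encodes the cytosolic selenoenzyme that recharges it with electrons from NADPH. The brightest TXN probeset read 9972 and 18604 in the deep cultures of pig 1 and pig 2, against 8319 and 8611 in their shallow cultures. The deep array of pig 2 alone stood apart, and the deep array of pig 1 was 0.26 above its shallow partner on the log2 scale, against 1.11 in pig 2. The log2 difference was 0.69 ± 0.33 (limma, adjusted p = 0.417), with a 95% interval from -0.08 to 1.46. This probeset is in the brightest 1%, whose median difference was 0.73, and under quantile normalization its difference was -0.071 and with the actin ratio as covariate -0.28. A dimmer TXN probeset read 350 and 1267 in deep cultures, against 258 and 180 in shallow cultures. Its difference was 1.62 ± 0.51 (limma, adjusted p = 0.216), and again the deep array of pig 2 set its size, with 0.44 in pig 1 and 2.81 in pig 2.

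The brightest TXNRD1 probeset read 2697 and 3386 in the deep cultures of pig 1 and pig 2, against 2060 and 2081 in their shallow cultures. The shallow cultures were nearly equal, and both deep cultures lay above them, by 0.39 in pig 1 and 0.70 in pig 2. The log2 difference was 0.55 ± 0.27 (limma, adjusted p = 0.433), with a 95% interval from -0.09 to 1.18. Its second-brightest probeset read 1191 and 1144 in deep cultures, against 952 and 950 in shallow cultures. Its difference of 0.30 ± 0.26 was smaller and nearly the same in the 2 pigs. The dimmest probeset went in opposite directions, by 1.47 in pig 1 and -0.95 in pig 2.

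**Figure D2:**
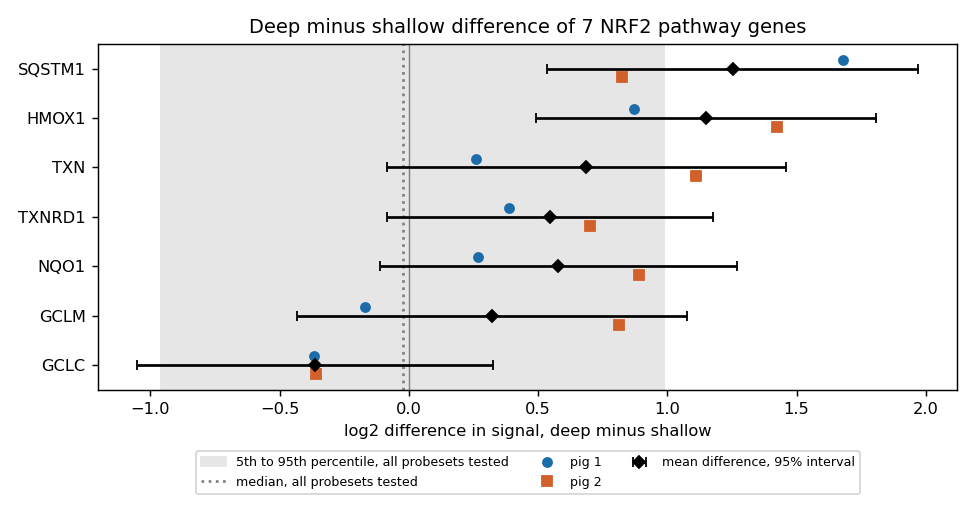
Log2 difference in signal, deep minus shallow, of the 7 measured genes. Diamonds with bars are the limma estimate with its 95% interval, circles and squares are pig 1 and pig 2, the grey band spans the 5th to 95th percentile of all probesets tested (-0.96 to 0.99), and the intervals of SQSTM1 and HMOX1 lie above 0 before adjustment for the number of probesets.

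**Figure D3:**
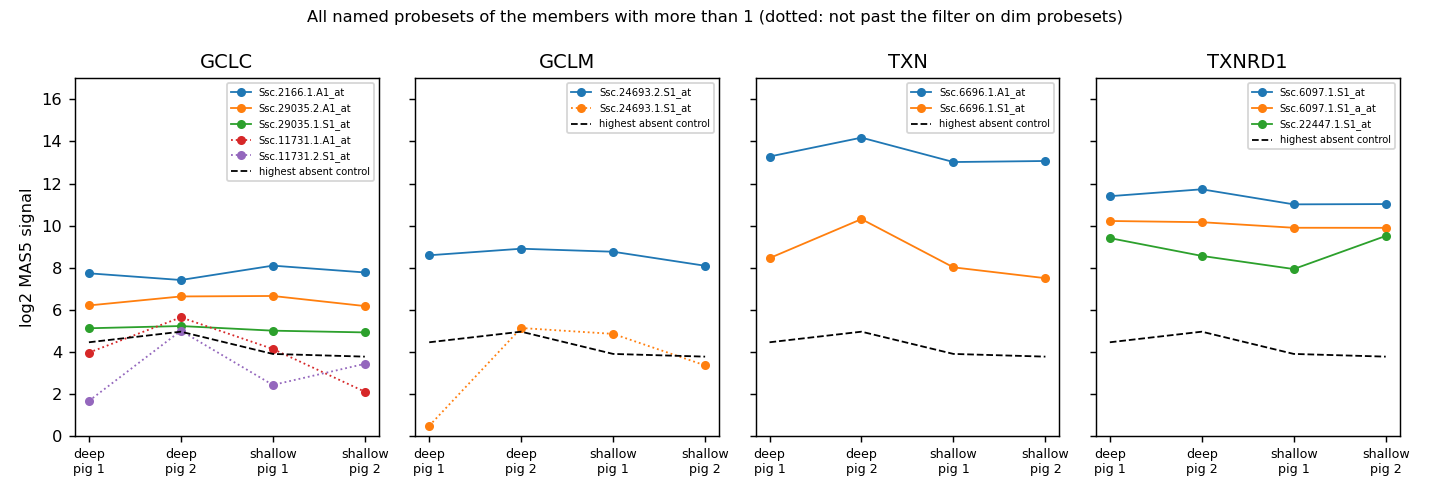
Log2 MAS5 signal on each array of every named probeset of GCLC, GCLM, TXN and TXNRD1, with dotted lines for probesets that did not pass the filter on dim probesets and a dashed line for the highest control of transcripts that should be absent. Both TXN probesets peak on the deep array of pig 2, and the dimmest TXNRD1 probeset moves in opposite directions in the pigs.

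The wider pathway was followed through 7 further lists. Of their 54 genes past the filter on dim probesets, GSTA1 rose in limma and 0 fell, and 11 were higher and 0 lower at an unadjusted p under 0.05. Over all probesets tested, 0.236% rose and 0.104% fell, and 6.94% were higher and 6.92% lower at an unadjusted p under 0.05. All 7 medians lay above that of all probesets tested, between 0.07 and 0.50. Under quantile normalization they lay between 0.0096 and 0.41, with 0.0096 for the thioredoxin and peroxiredoxin systems, 0.25 for NADPH supply and 0.25 for haem and iron genes.

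Among enzymes of glutathione use and recycling, 0 of 8 tested genes passed in limma, with 1 at an unadjusted p under 0.05, and the median difference was 0.29. GSS, glutathione synthetase, which adds glycine in the last step of synthesis, differed by 0.29 ± 0.28, and GSR, which reduces oxidized glutathione, by 0.16 ± 0.27. The gene at an unadjusted p under 0.05 was GLRX, glutaredoxin 1, which removes glutathione from protein thiols and is named here after its values were seen. It read 2347 and 2472 in the deep cultures of pig 1 and pig 2, against 992 and 925 in their shallow cultures. The replicates of each depth were close together and the groups far apart, with a difference of 1.33 ± 0.26 (limma, adjusted p = 0.0860) that was 1.30 under quantile normalization. Among 11 genes of the thioredoxin and peroxiredoxin systems 0 passed in limma and 0 had an unadjusted p under 0.05, and the median was 0.11. PRDX1, a peroxide-reducing peroxiredoxin, differed by 0.46 ± 0.30, or 0.01 under quantile normalization. TXNIP, which binds and inhibits thioredoxin, differed by 0.48 ± 0.33, with 1.06 in pig 1 and -0.10 in pig 2.

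NADPH feeds both thiol systems and NQO1. Of 5 genes for its supply 0 passed in limma and 0 had an unadjusted p under 0.05, and the median was 0.43. PGD, 6-phosphogluconate dehydrogenase of the pentose phosphate pathway, read 912 and 1115 in deep cultures, against 700 and 708 in shallow cultures. TALDO1, transaldolase of the same pathway, read 3291 and 4531 in deep cultures, against 2820 and 2907 in shallow cultures. The differences were 0.52 ± 0.27 for PGD and 0.43 ± 0.28 for TALDO1, or 0.55 and 0.25 under quantile normalization. The groups did not overlap for either gene. Of the 5 genes, 3 had both deep arrays on top, beside 23.2% of all probesets tested, and 1 had both below, beside 25.5%. TALDO1 is in the brightest 5% of probesets, where 54.4% had both deep arrays on top.

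Downstream of haem oxygenase lie the iron store and biliverdin reductase. Of 6 haem and iron genes 0 passed in limma, with 2 at an unadjusted p under 0.05, and the median was 0.41. These 2 were FTH1 and FTL, the heavy and light chains of ferritin, which sequesters the iron that haem breakdown frees. FTH1 read 13332 and 24233 in the deep cultures of pig 1 and pig 2, against 8372 and 8759 in their shallow cultures. The difference was 1.07 ± 0.33 (limma, adjusted p = 0.217), and 0.95 ± 0.33 for FTL (limma, adjusted p = 0.256). As with TXN the deep array of pig 2 stood highest, and under quantile normalization the differences were 0.24 for FTH1 and 0.07 for FTL. BLVRA, biliverdin reductase A, differed by -0.01 ± 0.31, or 0.07 under quantile normalization.

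Of 11 detoxication genes tested, 1 rose and 0 fell in limma, and 4 were higher at an unadjusted p under 0.05, with a median of 0.48. The called gene was GSTA1, an alpha-class glutathione transferase. It read 689 and 336 in deep cultures, against 24.4 and 15.3 in shallow cultures (4.64 ± 0.35; limma, adjusted p = 0.00891). Both shallow readings lay below the 27.1 units of the filter on dim probesets, so the probeset passed that filter through its deep arrays. They were not far above the highest absent controls of the shallow arrays, 14.8 and 13.6, so the size of the difference rests on readings near the floor. The difference kept its sign in every setting in which it was tested, from 3.81 to 5.96. With averaged probesets GSTA1 did not pass the filter and was not tested. The call was lost without the pig as block (limma, adjusted p = 0.0597), without the filter on dim probesets (limma, adjusted p = 0.0913) and with the actin ratio as covariate (limma, adjusted p = 0.872). It was also lost without the deep array of pig 1 or of pig 2, in fits with 1 deep culture left. EPHX1, microsomal epoxide hydrolase, read 404 and 306 in deep cultures, against 80.2 and 161 in shallow cultures (1.63 ± 0.39; limma, adjusted p = 0.132). The other 2 at that level, named after their values were seen, were GSTA4, which conjugates the lipid peroxidation product 4-hydroxynonenal, at 1.23 ± 0.29, and PIR, pirin, an iron-binding nuclear protein, at 1.16 ± 0.31. MGST1, a membrane-bound glutathione transferase, differed by 0.53 ± 0.30, with 0.94 in pig 1 and 0.12 in pig 2. CBR1, a carbonyl reductase, did not pass the filter on dim probesets. It read 8.50 and 1.10 in deep cultures, against 216 in the shallow culture of pig 1 and 3.79 in that of pig 2, so that it was above the absent controls only on the array with epithelial markers.

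Genes that act with SQSTM1 in selective autophagy were also compared. Of 10 tested, 0 passed in limma and 3 were higher at an unadjusted p under 0.05, with a median of 0.50. The deep arrays lay above the shallow arrays, with no overlap, for 7 of the 10, beside 23.2% of all probesets tested. Of these 7, 4 are in the brightest 5% of probesets, where that share was 54.4%. The largest difference was that of OPTN, the cargo receptor optineurin, named after its values were seen. It read 3812 and 5451 in the deep cultures of pig 1 and pig 2, against 1794 and 2399 in their shallow cultures (1.14 ± 0.27; limma, adjusted p = 0.130). MAP1LC3B, the membrane-bound LC3 to which such receptors attach, differed by 0.24 ± 0.28, with 0.47 in pig 1 and 0.02 in pig 2. Of the listed partners and repressors of NRF2, 3 were measured, and BACH1, MAFG, CUL3 and NFE2L1 were not among them. Of these 3, 0 passed in limma and 1 had an unadjusted p under 0.05, with a median of 0.07.

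**Figure D4:**
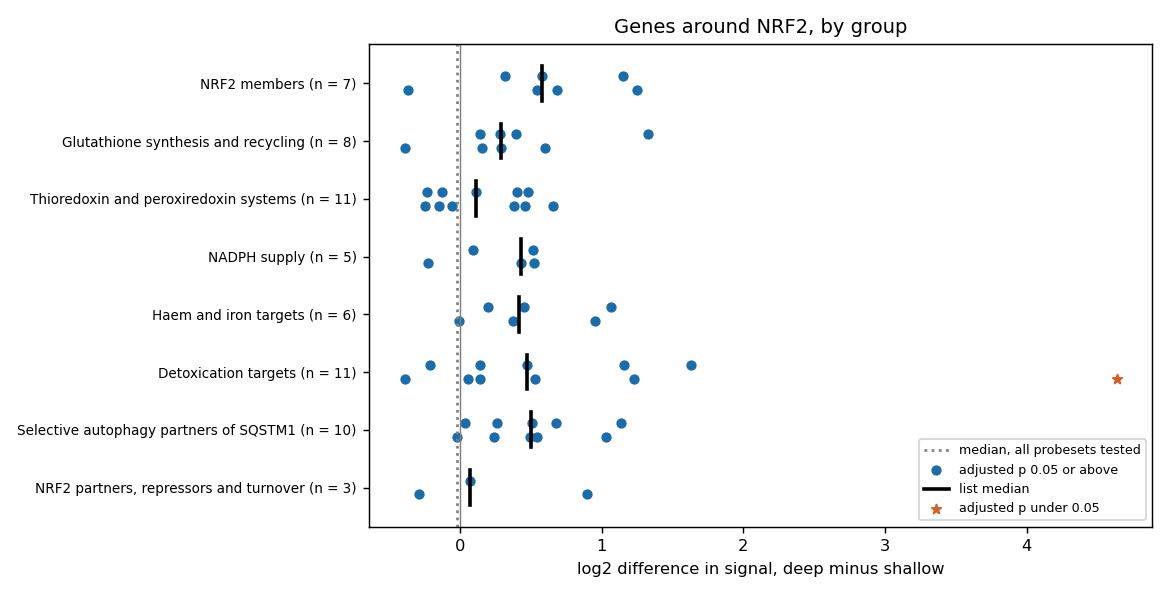
Log2 difference in signal, deep minus shallow, of each tested gene in the set and in 7 related lists, with the list median as a black bar and the median of all probesets tested as a dotted line. GSTA1 is the gene marked as past an adjusted p of 0.05, at 4.64, and the list medians lie between 0.07 and 0.58.

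Among all named genes past the filter, the profiles nearest to that of SQSTM1 over the 4 arrays were those of FBN1, SERPING1, ADSSL1 and FBLN1. The measure was the root mean square difference of mean-centred log2 signals, which was 0.02 for FBN1 and 0.11 for FBLN1. FBN1, the microfibril protein fibrillin 1, read 8158 and 9956 in deep cultures, against 2581 and 5616 in shallow cultures. FBLN1 encodes the matrix protein fibulin 1 and SERPING1 the C1 inhibitor of complement. Nearest to HMOX1 were ZFP36, COL3A1, SH3GL3 and CNN1, at 0.13 to 0.20. The COL3A1 probeset was dim, at 47.7 and 44.4 in deep cultures, against 26.7 and 19.4 in shallow cultures. Both shallow readings lay below the 27.1 units of the filter on dim probesets. ZFP36, tristetraprolin, which speeds the decay of inflammatory mRNAs, read 292 and 223 in deep cultures, against 161 and 105 in shallow cultures. With 4 arrays many genes share such an order, and likeness of this kind carries no test.

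**Figure D5:**
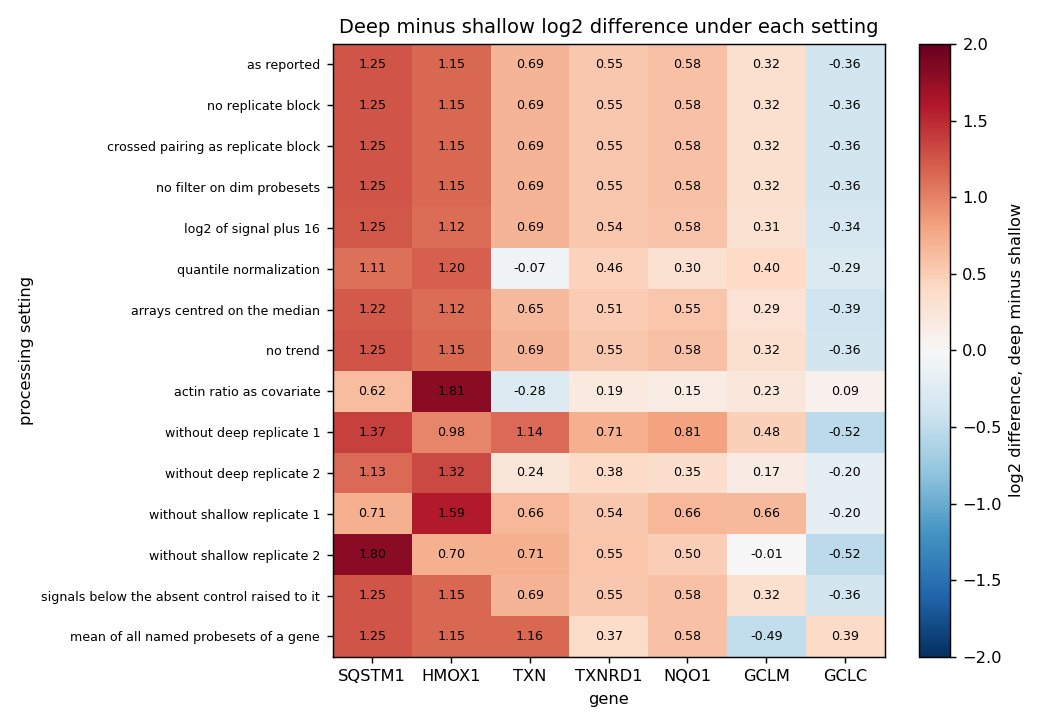
Log2 difference, deep minus shallow, of each measured gene (columns) under each processing setting (rows), with the value printed in each cell and blue for below 0. SQSTM1 and HMOX1 stay at or above 0.62 in every row, TXN drops to -0.071 under quantile normalization and to -0.28 with the actin ratio as covariate, and GCLC and GCLM change sign when all their named probesets are averaged.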

How the data were processed

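RNA from 4 fibroblast cultures was hybridized to a porcine expression array. The deposited values are signal intensity. The submitters' processing notes name MAS5 and GCOS 1.0 as the authors' software, and the trimmed mean without the top and bottom 2% was 250.1 on each array. No detection calls were used, so signals were set beside 23 controls (tag and tryptophan probesets) whose transcripts should be absent. Tests left out all 124 control probesets. Signals under 1 were set to 1, log2 was taken, and the 14399 of 23999 probesets at or above the 40th percentile of mean log2 signal (27.1 units) were kept. Genes were named from the platform annotation, which gives 1 symbol to 10069 probesets.

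Deep and shallow arrays were compared with limma 3.58.1 in R 4.3.3 (lmFit, eBayes with trend, pig as block, Benjamini-Hochberg over all 14399 probesets). The code was also run on simulated arrays with independent noise. Those arrays held no pig effect and no shift of bright probesets, so that run does not bear on these features of the data. The block leaves 1 residual degree of freedom, and moderation adds 6.88. It comes from the series' design. Across probesets, same-pig arrays deviated from the mean of their depth with a correlation of -0.010. The number of arrays limits the precision.

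Members, gene lists and tests were chosen with earlier results of these data known. Named by rule were all members, GSTA1 as the called list gene, a set of names fixed for each list, and the 4 nearest profiles of the 2 members with the widest range. GLRX, GSTA4, PIR, OPTN and the nearest profiles of the other members were added after their values were seen. Gene lists are described by counts and medians, with no set test. Alternatives were no block, crossed pairing, no filter, a pseudocount of 16, quantile normalization, median centring, no trend, the actin ratio as covariate, absent controls as floor, averaged probesets and leaving out each array.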

Additional observations from a re-analysis of the deposited data

How the results depend on the processing

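Over 14 alternatives, the differences of SQSTM1 (0.62 to 1.80), HMOX1 (0.70 to 1.81), NQO1 (0.15 to 0.81) and TXNRD1 (0.19 to 0.71) stayed positive. TXN was -0.071 under quantile normalization and -0.28 with the actin ratio as covariate, GCLC was 0.086 with that covariate and 0.39 with averaged probesets, and GCLM was -0.49 with averaged probesets and -0.013 without the shallow array of pig 2 (up to 0.66 without that of pig 1). The actin ratio was higher on both deep arrays, so that fit shares its covariate with depth. The other causes were not tested. The median of the members lay between 0.19, with the actin ratio, and 0.81, without the deep array of pig 1. With averaged probesets GSTA1 did not pass the filter. No member was called by limma without the replicate block (0 members, 2 at an unadjusted p under 0.05), and crossed pairing also called 0, with 2 at that level. With 1 array left out, HMOX1 differed by 0.70 to 1.59 and SQSTM1 by 0.71 to 1.80. These fits have no block and assume that the lone culture varies like the others, so their p-values measure no spread at its depth. Members with all deep arrays above all shallow arrays, a count added after the data were seen, were 5 to 6 of 7 with 1 array left out. Beside them stood 32.0% to 39.2% of all probesets tested.

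Of all probesets, 49 were called. Without the replicate block 0 were (1885 at an unadjusted p under 0.05), without the filter 0 (2246) and with the actin ratio 0 (283). Crossed pairing gave 202, quantile normalization 93, no trend 3, absent controls as floor 22 and averaged probesets 18. Leaving out 1 array gave 0 to 1768.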

Other observations

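The profiles nearest to the remaining members were read off in the same way and are named after their values were seen. Nearest to TXN were the ribosomal protein genes RPS27A, RPS29 and RPL17 and the intermediate filament gene VIM, at a root mean square difference of 0.03 to 0.04 on the log2 scale. RPS27A read 12056 and 22150 in the deep cultures of pig 1 and pig 2, against 9564 and 10090 in their shallow cultures. For NQO1 the nearest were GRAMD1A, GFAP, GPATCH3 and BLOC1S1, at 0.02 to 0.03. For TXNRD1 they were DCAKD, PGD, ARPC2 and EML2, at 0.01 to 0.02. Nearest to GCLC were TNPO3, PSMG3, PGM3 and PSMB5, at 0.01 to 0.02. PSMB5, a catalytic subunit of the proteasome, read 1741 and 1451 in deep cultures, against 2259 and 1851 in shallow cultures (-0.36; limma, adjusted p = 0.594). PSMG3 is an assembly factor of the same complex. Nearest to GCLM were ALAD, MAN2C1, BOLA1 and RBKS, at 0.01 to 0.04. ALAD, an enzyme of haem synthesis, read 153 and 192 in deep cultures, against 177 and 109 in shallow cultures.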
